A study of Mus musculus with 6 samples.

Results

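Calcium for signaling in fibroblasts is held in the endoplasmic reticulum (ER), and the 10 genes examined here encode the proteins that fill, empty and refill that store: the calcium sensors *Stim1* and *Stim2*, the plasma membrane channels *Orai1*, *Orai2* and *Orai3*, the release channels *Itpr1*, *Itpr2* and *Itpr3*, and the pumps *Atp2a2* and *Atp2b1*. They were chosen by name, as parts of this pathway, and all 10 were among the 25140 genes of the count table and passed the filter on low counts, which kept 14334 genes. RNA was sequenced from primary cardiac fibroblasts of adult C57BL/6 hearts at passage 1, in 3 vehicle and 3 TGFβ libraries. The cells were grown in medium with 25 mM glucose and 10% serum, kept for 16 h in 1% serum, and then given vehicle or TGFβ at 10 ng/ml for 24 h, so the low serum step is shared by both groups. The question posed was how transcription changes as fibroblasts become myofibroblasts. The paper's results call the RNA-seq cells mouse embryonic fibroblasts and its methods call them cardiac fibroblasts, which is also the name on the samples. The 16 h of low serum are those given for the samples. For all its experiments the paper's methods state 1% serum from 24 h before treatment until its end.

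When a receptor on the cell surface activates phospholipase C, the second messenger IP3 opens IP3 receptors in the ER membrane and calcium flows into the cytosol. STIM proteins sense the falling calcium inside the ER and open ORAI channels in the plasma membrane, a route known as store-operated calcium entry. SERCA pumps such as the product of *Atp2a2* then return calcium to the ER, and plasma membrane pumps such as the product of *Atp2b1* move it out of the cell. IP3-mediated release is also the usual source of the calcium that mitochondria take up, the process at the center of the study.

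The libraries held 27851677 to 31072338 counts, and the 10 genes were each covered by 497 to 16117 counts per library. The treatment was visible in *Acta2*, which encodes α-smooth muscle actin (mean ± SD of 1333 ± 144 CPM in the 3 vehicle and 2717 ± 74.0 CPM in the 3 TGFβ libraries), and in *Postn*, which encodes periostin (967 ± 134 and 2830.3 ± 333 CPM). CPM stands for counts divided by the TMM-adjusted size of the library, on the customary CPM scale. Of 9 fibroblast markers 7 fell and none rose. *Col1a1* (log2 fold change 0.23; edgeR, adjusted p = 0.0550) and *Col1a2* (0.13; edgeR, adjusted p = 0.196) were not called. The fibroblast list summed to 38079 to 42849.5 CPM with vehicle and 41555 to 45016 CPM with TGFβ. *Col1a1* (18825 to 21704 and 22551 to 24935 CPM) and *Col1a2* (12660 to 14347 and 14232 to 15555 CPM) made up most of this sum. It therefore does not show the fall of the other 7 markers. Of 8 cardiomyocyte markers *Myh6*, *Actn2*, *Ttn*, *Ryr2*, *Pln* and *Tnni3* had at most 16 counts in any library and *Nppa* had 6 to 33. *Tnnt2* had 744 to 1854 (log2 fold change -0.46; edgeR, adjusted p = 0.0822, and called lower by DESeq2 but not by limma-voom). The 4 mesothelial markers, none of them called, summed to 24.1 to 82.5 CPM with vehicle and 15.3 to 40.5 CPM with TGFβ. Of 4 pericyte markers *Cspg4* rose (1.45; edgeR, adjusted p = 0.000614), and *Pdgfrb*, *Rgs5* and *Kcnj8* were not called. The list summed to 1136 to 1178 CPM with vehicle and 1268 to 1277 CPM with TGFβ. Most of this was *Pdgfrb* (1105 to 1150 and 1179 to 1226 CPM; edgeR, adjusted p = 0.116). Of 4 smooth muscle markers *Smtn* (0.29) and *Lmod1* (0.56) rose, and the list summed to 129 to 152 and 143 to 198 CPM. The part of these cells in the changes of the 10 genes was not tested. The 6 endothelial markers summed to 404 to 610 CPM with vehicle and 370 to 497 CPM with TGFβ, and none of them passed the test, with 0 at an unadjusted p under 0.05 and 0 called by DESeq2 or limma-voom. In bulk RNA, fewer cells of a type and less RNA per cell cannot be told apart.

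With TGFβ, 3 of the 10 genes rose and 1 fell. *Itpr3* (22.0% higher in mean CPM), *Stim2* (19.1% higher) and *Atp2a2* (15.5% higher) were the genes that rose, and *Orai3* fell (15.9% lower). *Stim1*, *Orai1*, *Orai2*, *Itpr1*, *Itpr2* and *Atp2b1* did not pass the test. The 4 of 10 genes called (40%) stood beside 40.7% of all genes tested in this comparison (20.5% higher and 20.1% lower), so the number of calls did not set the 10 genes apart. The groups did not overlap for 5 of the 10 genes, against 53.3% of all genes tested. Every change was small: the largest was 0.29 on the log2 scale, a size that 38.2% of all genes tested and 67.2% of those called exceeded. The median log2 fold change was 0.07 over the 10 genes and -0.0013 over all genes tested. A gene is called here when edgeR's quasi-likelihood test gave a Benjamini-Hochberg adjusted p under 0.05 over all genes tested.

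**Figure D1:**
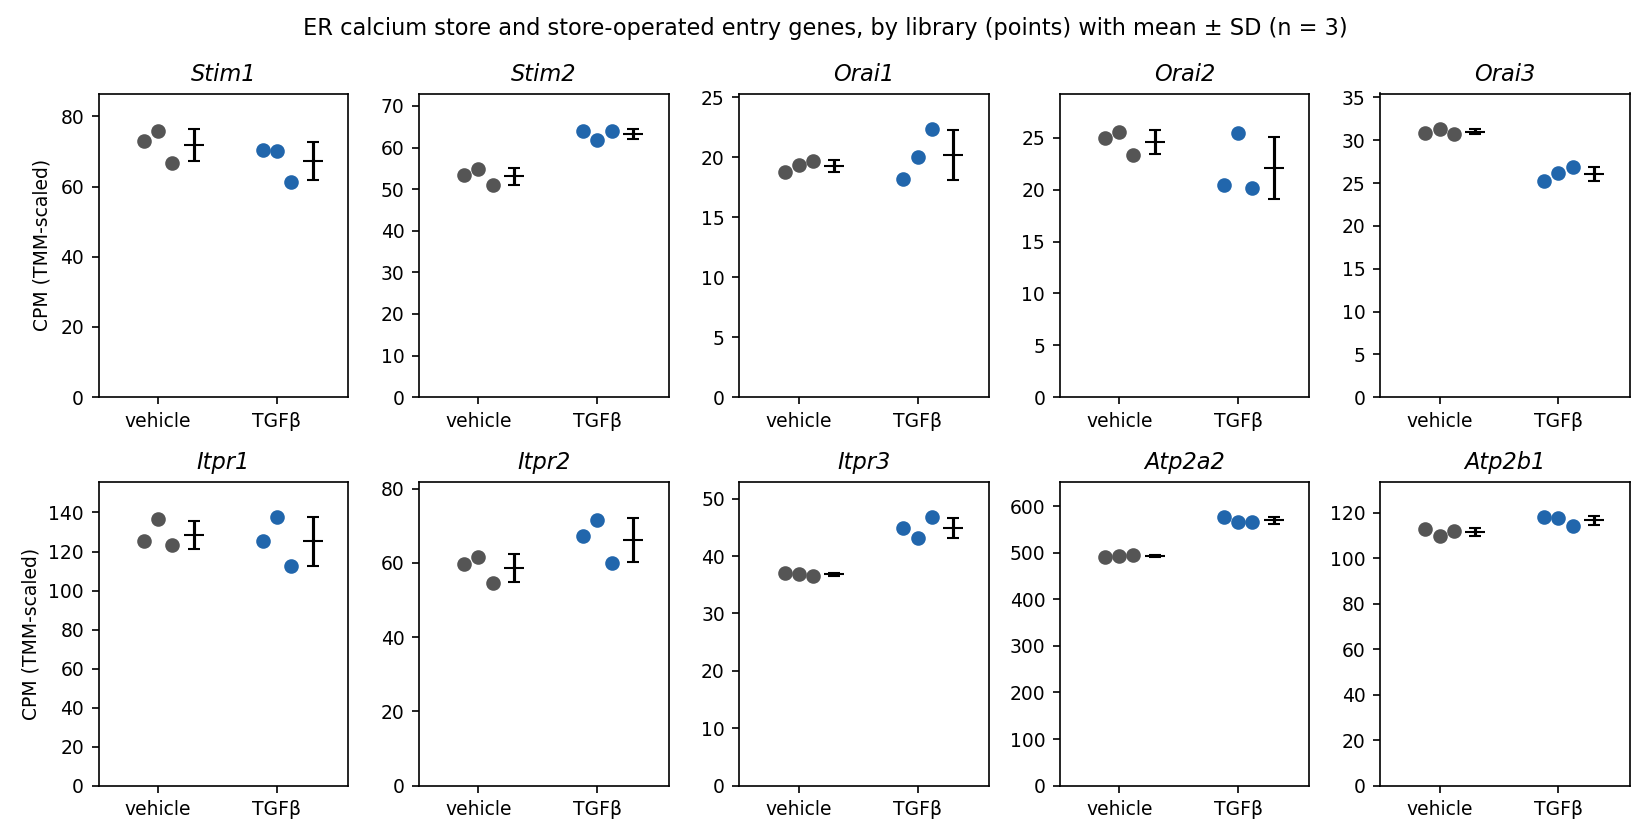
Expression of the 10 genes in each library, in CPM on axes that start at 0 (points are libraries, grey for vehicle and blue for TGFβ, with bars for the mean ± SD, n = 3). The groups are separate for *Stim2*, *Orai3*, *Itpr3*, *Atp2a2* and *Atp2b1*, and overlap for the other genes.

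The stretches of genome just upstream of the 3 called genes that had an entry in the RefSeq promoter table (GRCm38.p6; *Atp2a2* and *Itpr1* had none) are shown here because they differ in their number of CpG dinucleotides, which are in capitals. Each is written 5′ to 3′ on the plus strand, which is the strand of all 3 genes, and ends at the last base before the first annotated base of the gene.
*Stim2*, chr5:53998273-53998498: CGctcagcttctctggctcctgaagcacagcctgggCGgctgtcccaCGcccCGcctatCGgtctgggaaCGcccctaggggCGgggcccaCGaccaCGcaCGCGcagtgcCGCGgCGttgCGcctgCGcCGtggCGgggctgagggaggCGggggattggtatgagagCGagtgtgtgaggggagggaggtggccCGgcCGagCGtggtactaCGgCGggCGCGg
*Orai3*, chr7:127769565-127769814: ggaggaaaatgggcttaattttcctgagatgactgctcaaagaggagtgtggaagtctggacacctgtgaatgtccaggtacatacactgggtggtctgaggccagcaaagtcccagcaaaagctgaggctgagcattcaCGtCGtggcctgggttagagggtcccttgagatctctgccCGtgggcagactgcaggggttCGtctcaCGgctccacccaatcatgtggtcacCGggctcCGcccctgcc
*Itpr3*, chr17:27057054-27057303: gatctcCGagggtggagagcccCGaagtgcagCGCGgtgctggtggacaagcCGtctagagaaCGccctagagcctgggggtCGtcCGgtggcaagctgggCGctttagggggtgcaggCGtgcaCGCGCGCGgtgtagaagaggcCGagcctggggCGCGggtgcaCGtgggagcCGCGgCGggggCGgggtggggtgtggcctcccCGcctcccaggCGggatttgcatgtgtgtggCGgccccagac
Over the 250 bases before the RefSeq start, *Orai3*, the gene that fell, had 7 CpG dinucleotides and 57.2% GC, and 24.2% of the windows of tested genes held as few. *Stim2* and *Itpr3*, which rose, had 30 and 25 CpG dinucleotides and 74.8% and 72.0% GC. The median over the windows of tested genes was 15 CpG dinucleotides and 59.6% GC. High counts were not particular to the genes that rose. *Stim1* had 31, *Orai1* had 30 and *Atp2b1* had 43 in its first window, and none of these was called. *Orai2* had 17 and *Itpr2* had 22, between the counts of *Orai3* and *Itpr3*, and were not called either. Only 14 bases of that *Atp2b1* window, with 1 CpG dinucleotide, lie before the first annotated base of the gene. Nothing about binding or methylation was measured at these windows.

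*Stim1* and *Stim2* encode the ER calcium sensors. STIM2 is known to respond to smaller falls in ER calcium than STIM1, and STIM1 is the stronger activator of ORAI channels. *Stim2* (ENSMUSG00000039156; chromosome 5, 53998499 to 54121057, plus strand, GRCm38) stood at 53.5, 54.9 and 50.9 CPM in the vehicle libraries and at 63.9, 61.8 and 64.1 CPM in the TGFβ libraries. Every TGFβ library was above every vehicle library. The log2 fold change was 0.25 ± 0.04 (SE; 95% interval 0.15 to 0.35; edgeR, adjusted p = 0.00255), and the exact permutation test on the 6 values gave p = 0.1, the smallest that 3 libraries against 3 allow. *Stim1* (ENSMUSG00000030987; chromosome 7, 102267806 to 102437319, plus strand) stood at 72.9, 75.9 and 66.8 CPM with vehicle and at 70.4, 70.3 and 61.2 CPM with TGFβ. These ranges overlapped. Its log2 fold change was -0.09 ± 0.07 (SE; 95% interval -0.26 to 0.07; edgeR, adjusted p = 0.320), so a fall of up to 0.26 or a rise of up to 0.07 on the log2 scale lay within the interval. 

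Within each library the counts of *Stim1* and *Stim2* can be set against each other with no scaling between libraries. The ratio of *Stim1* to *Stim2* counts was 1.36, 1.38 and 1.31 with vehicle and 1.10, 1.14 and 0.955 with TGFβ. It was lower in all 3 TGFβ libraries than in any vehicle library. The difference in log2 ratio was -0.35 (two-sided exact permutation test, p = 0.1; 0.18 after adjustment over the 9 ratios computed), and 0.1 is the smallest p this design can give. Summed over both genes per kb of exon, the STIM level was 17.3 ± 0.838 CPM per kb with vehicle and 18.8 ± 0.428 with TGFβ (SD, n = 3; exact permutation p = 0.1, 0.15 adjusted over the 3 families). With the longest transcript of each gene as the length, an alternative added after the data were seen, the STIM groups overlapped (27.2 ± 1.47 and 28.2 ± 1.10 CPM per kb; log2 fold change 0.05; exact permutation p = 0.5), so the separation of the STIM sums rests on the length used.

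ORAI proteins form the calcium channel of the plasma membrane. ORAI1 carries most store-operated current in many cells, and ORAI3 is known also to join ORAI1 in channels that open without store depletion. *Orai3* (ENSMUSG00000043964; chromosome 7, 127769815 to 127775150, plus strand) stood at 30.9, 31.4 and 30.8 CPM with vehicle and at 25.3, 26.2 and 26.8 CPM with TGFβ. All TGFβ libraries were below all vehicle libraries. The log2 fold change was -0.25 ± 0.05 (SE; 95% interval -0.35 to -0.14; edgeR, adjusted p = 0.00361), which made *Orai3* the only gene of the 10 that was called lower.

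*Orai1* (ENSMUSG00000049686; chromosome 5, 123015074 to 123030456, plus strand) had the lowest mean CPM of the 10 genes, at 18.7, 19.4 and 19.7 CPM with vehicle and 18.2, 19.98 and 22.4 CPM with TGFβ. The TGFβ libraries spread to both sides of the vehicle libraries. Its log2 fold change was 0.07 ± 0.08 (SE; 95% interval -0.12 to 0.25; edgeR, adjusted p = 0.545), and leaving out the TGFβ library of 28641986 counts, where *Orai1* was highest, gave -0.02. *Orai2* (ENSMUSG00000039747; chromosome 5, 136147459 to 136170713, minus strand) stood at 25.0, 25.6 and 23.3 CPM with vehicle and at 20.5, 25.5 and 20.2 CPM with TGFβ. A pair of TGFβ libraries lay below the vehicle range and the other, of 28894151 counts, lay inside it. The log2 fold change was -0.16 ± 0.09 (SE; 95% interval -0.38 to 0.06; edgeR, adjusted p = 0.223), and without that library it was -0.28 with an adjusted p of 0.0193, so this single library decided whether *Orai2* was called.

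The ratio of *Orai1* to *Orai3* counts was 0.606, 0.618 and 0.641 with vehicle and 0.719, 0.763 and 0.834 with TGFβ. The groups did not overlap, with a difference in log2 ratio of 0.31 (two-sided exact permutation test, p = 0.1; 0.18 adjusted over 9 ratios). The ratios of *Orai1* to *Orai2* (0.23 difference in log2 ratio) and of *Orai2* to *Orai3* (0.08) overlapped between the groups. Summed per kb of exon, the ORAI level was 26.9 ± 0.326 CPM per kb with vehicle and 24.6 ± 1.34 with TGFβ (SD, n = 3), without overlap (exact permutation p = 0.1, 0.15 adjusted over 3 families). The ratio of *Stim1* to *Orai1* counts overlapped between the groups, with a difference of -0.16 in log2 ratio (two-sided exact permutation test, p = 0.5; 0.562 adjusted over 9 ratios), and it was -0.01 with the TGFβ library of 28641986 counts left out.

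The IP3 receptors release calcium from the ER, and the 3 types differ in their sensitivity to IP3 and to calcium, with type 2 known as the most sensitive to IP3. *Itpr3* (ENSMUSG00000042644; chromosome 17, 27057304 to 27122223, plus strand) stood at 37.1, 36.9 and 36.5 CPM with vehicle and at 44.9, 43.1 and 46.7 CPM with TGFβ. The vehicle libraries were nearly equal and every TGFβ library was above them. The log2 fold change was 0.29 ± 0.04 (SE; 95% interval 0.18 to 0.39; edgeR, adjusted p = 0.00169), the largest of the 10 genes in size. 

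*Itpr2* (ENSMUSG00000030287; chromosome 6, 146108299 to 146502223, minus strand) stood at 59.6, 61.7 and 54.5 CPM with vehicle and at 67.3, 71.6 and 59.9 CPM with TGFβ. The ranges overlapped through the TGFβ library of 28641986 counts. The log2 fold change was 0.18 ± 0.07 (SE; 95% interval 0.005 to 0.35), with an unadjusted p of 0.0451 and an adjusted p of 0.0940 in edgeR, and without that library it was 0.24 with an adjusted p of 0.0213. *Itpr1* (ENSMUSG00000030102; chromosome 6, 108213096 to 108551109, plus strand) had the most counts of the 3 and stood at 125.5, 136.7 and 123.3 CPM with vehicle and 125.4, 137.6 and 112.7 CPM with TGFβ. The ranges overlapped, and the TGFβ libraries reached lower. Its log2 fold change was -0.04 ± 0.08 (SE; 95% interval -0.21 to 0.14; edgeR, adjusted p = 0.729), and its sign turned when the vehicle library of 29296570 counts (0.01) or the TGFβ library of 28641986 counts (0.03) was left out.

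Within a library, *Itpr1* counts were 2.11, 2.22 and 2.26 times those of *Itpr2* with vehicle and 1.86, 1.92 and 1.88 times with TGFβ. The TGFβ ratios were all lower, although neither gene was called on its own, and the difference in log2 ratio was -0.22 (two-sided exact permutation test, p = 0.1; 0.18 adjusted over 9 ratios). The ratio of *Itpr1* to *Itpr3* counts went from 3.49 ± 0.189 with vehicle to 2.80 ± 0.392 with TGFβ (SD, n = 3), a difference of -0.33 in log2 ratio, also without overlap and with the same p-values. *Itpr2* to *Itpr3* overlapped (-0.11). The summed IP3 receptor level was 15.1 ± 0.632 CPM per kb with vehicle and 16.3 ± 0.876 with TGFβ, and the groups overlapped (exact permutation p = 0.2, 0.2 adjusted over 3 families).

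**Figure D2:**
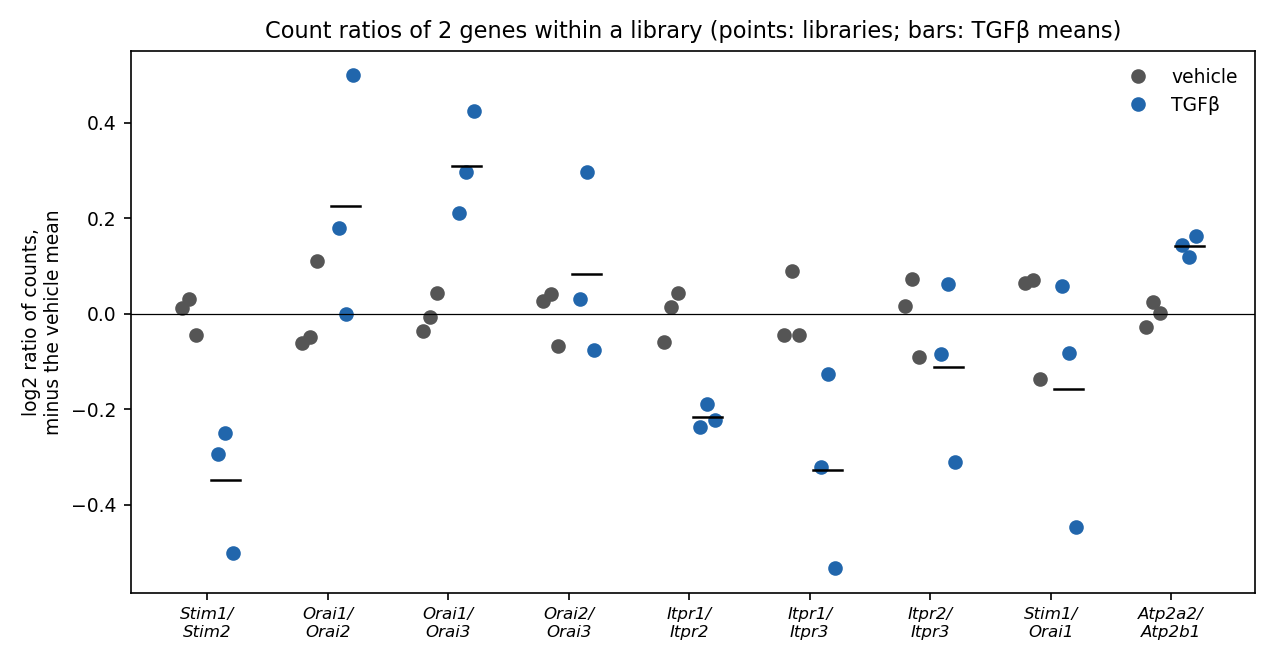
Log2 ratio of the counts of 2 genes in the same library, minus the vehicle mean of that ratio (points are libraries, grey for vehicle and blue for TGFβ, and black bars are TGFβ means). The TGFβ libraries lie entirely below the vehicle libraries for *Stim1*/*Stim2*, *Itpr1*/*Itpr2* and *Itpr1*/*Itpr3*, and entirely above for *Orai1*/*Orai3* and *Atp2a2*/*Atp2b1*.

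*Atp2a2* (ENSMUSG00000029467; chromosome 5, 122453513 to 122502225, minus strand) encodes SERCA2, the pump that loads the ER, and was by far the most abundant of the 10 genes. It stood at 489.8, 493.7 and 495.1 CPM with vehicle and at 577.3, 565.0 and 565.3 CPM with TGFβ. The spread within each group was small beside the gap between them. The log2 fold change was 0.21 ± 0.04 (SE; 95% interval 0.12 to 0.30; edgeR, adjusted p = 0.00424). Counts per gene do not separate SERCA2a from SERCA2b, and 2.43% of the 75-base windows of the longest *Atp2a2* transcript also occur in transcripts of other genes.

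*Atp2b1* (ENSMUSG00000019943; chromosome 10, 98914406 to 99026143, plus strand) encodes PMCA1, the housekeeping calcium pump of the plasma membrane. It stood at 112.9, 109.7 and 111.8 CPM with vehicle and at 118.1, 117.6 and 114.3 CPM with TGFβ. The groups did not overlap, yet the difference did not pass the test: the log2 fold change was 0.07 ± 0.04 (SE; 95% interval -0.02 to 0.15; edgeR, adjusted p = 0.189). *Atp2a2* counts were 4.42 ± 0.0804 times those of *Atp2b1* with vehicle and 4.88 ± 0.0719 times with TGFβ (SD, n = 3), a difference of 0.14 in log2 ratio without overlap (two-sided exact permutation test, p = 0.1; 0.18 adjusted over 9 ratios).

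**Figure D3:**
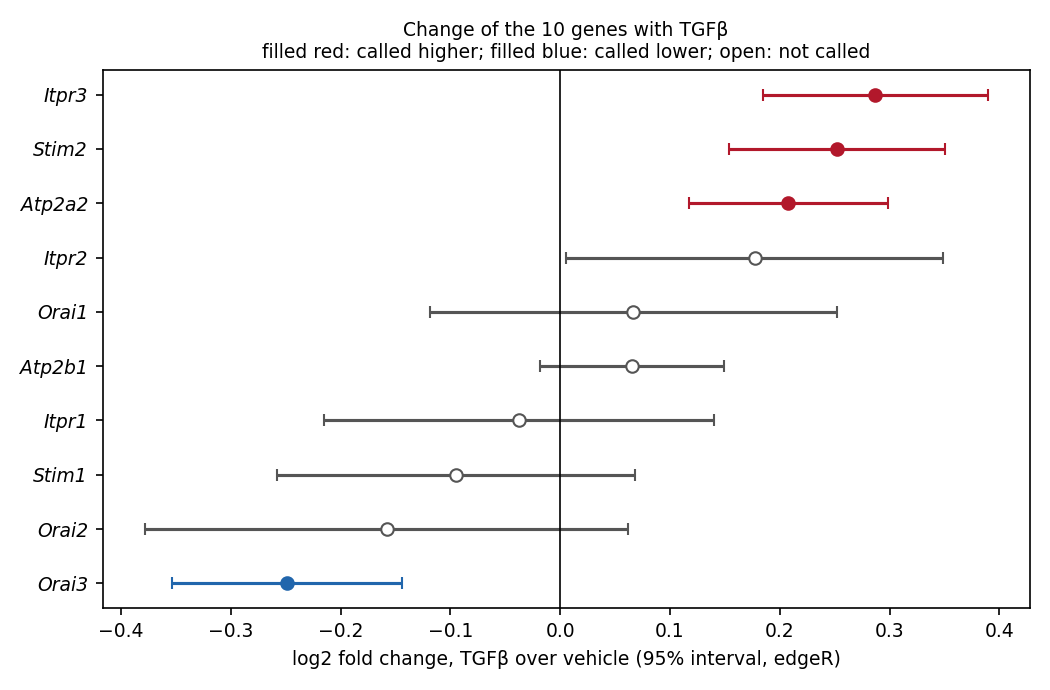
Change with TGFβ (log2 fold change over vehicle) of the 10 genes, with the 95% interval from edgeR (filled points were called, red for higher and blue for lower, and open points were not called). *Itpr3*, *Stim2* and *Atp2a2* lie above 0, *Orai3* lies below 0, and the widest intervals belong to *Orai2* and *Orai1*.

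Levels of different genes were compared as CPM per kb of exon, with the exons of all transcripts of a gene merged. On this scale and over the 6 libraries, *Atp2a2* averaged 87.3 CPM per kb and stood at percentile 96.8 of the genes tested, and the other 9 genes lay between 3.84 CPM per kb (*Orai2*, percentile 47.5) and 13.3 CPM per kb (*Orai3*, percentile 76.9). In between came *Stim2* (11.3), *Orai1* (8.60), *Atp2b1* (7.50), *Itpr1* (6.93), *Stim1* (6.71), *Itpr3* (4.53) and *Itpr2* (4.22). The library ranges of neighbors in this order overlapped for *Orai3* and *Stim2*, *Atp2b1* and *Itpr1*, *Itpr1* and *Stim1*, *Itpr3* and *Itpr2*, and *Itpr2* and *Orai2*. The order depended on the length used. With the longest transcript in place of merged exons, *Atp2b1* averaged 16.0, *Stim1* 16.0 and *Itpr1* 12.9 CPM per kb, because their merged exons (15218, 10371 and 18319 bases) are far longer than their longest transcripts (7130, 4362 and 9870 bases).

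As a share of its family's level per kb of merged exon, *Stim2* went from 59.9% ± 0.657 with vehicle to 65.5% ± 2.09 with TGFβ (SD, n = 3). *Orai1* went from 31.2% ± 0.771 to 35.7% ± 2.09 of the ORAI level, and *Orai3* from 53.8% ± 0.236 to 49.6% ± 1.34. *Itpr1* went from 46.6% ± 0.892 to 41.9% ± 1.94 of the IP3 receptor level. For these genes the 2 groups of libraries did not overlap. The shares of *Orai2*, *Itpr2* and *Itpr3* (27.1% ± 1.02 and 30.7% ± 2.91) overlapped, although those of *Itpr2* and *Itpr3* did not on the longest transcript. A share also moves when another gene of the family changes, and *Orai1* itself was not called. With the longest transcript as the length, *Stim1* rather than *Stim2* was the larger part of the STIM level (60.5% ± 0.655 with vehicle and 54.6% ± 2.32 with TGFβ). Which sensor gene was more abundant could therefore not be told from these counts. The shift toward *Stim2* has the same direction at any length, because with 2 genes it follows from their count ratio. The longest transcript thus adds no support to that shift.

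**Figure D4:**
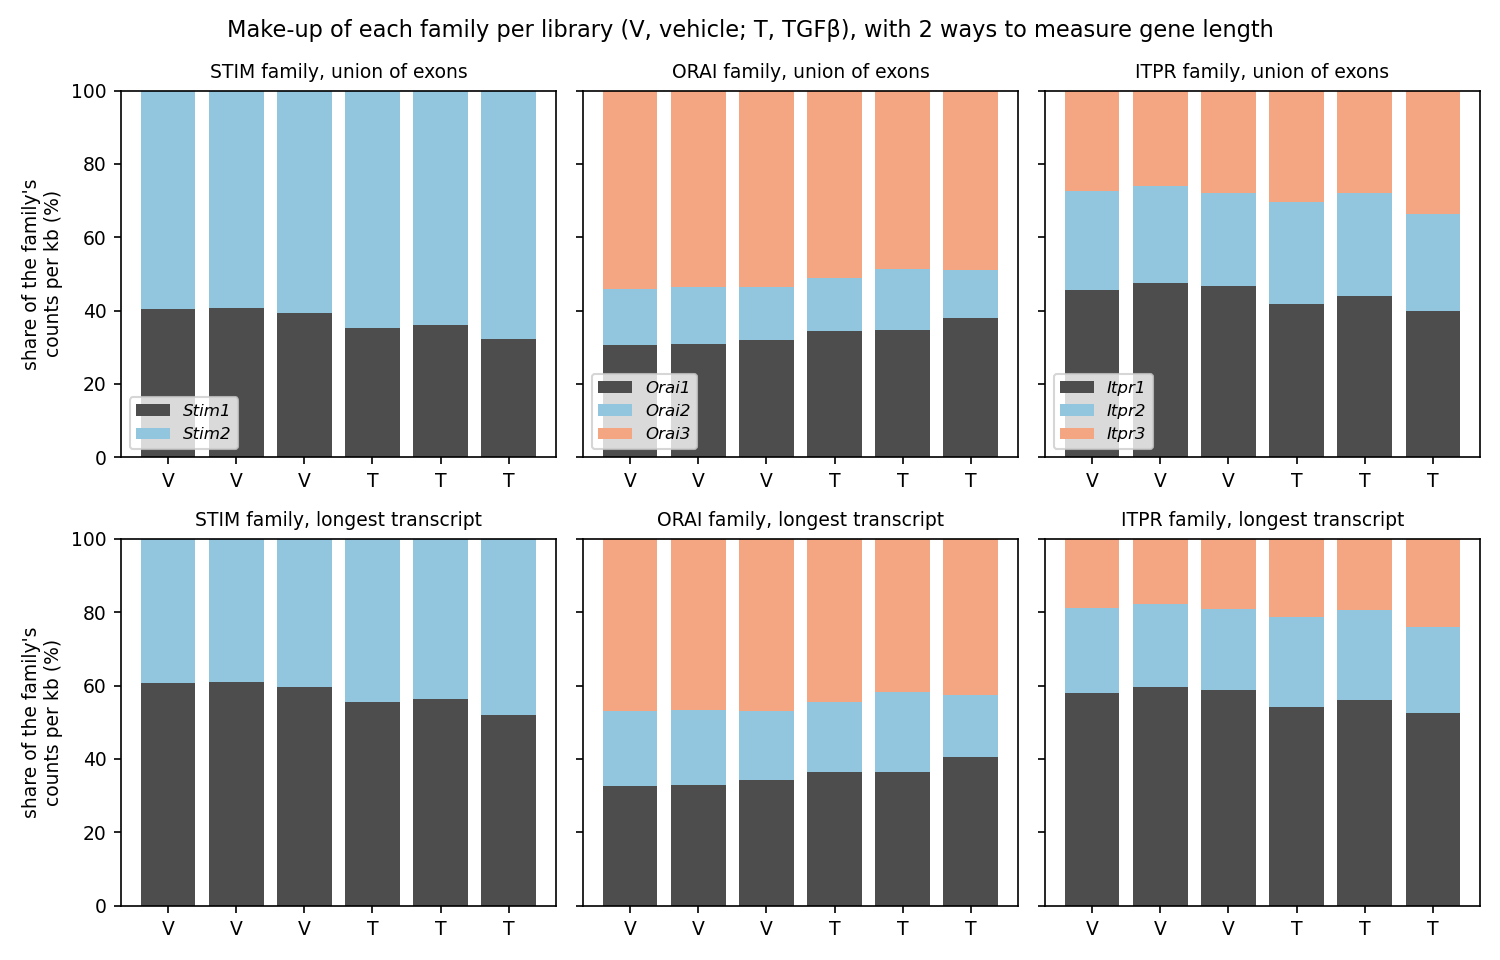
Share (%) of each gene in the summed counts per kb of its family, 1 bar per library (V, vehicle, and T, TGFβ), with merged exons as the length in the top row and the longest transcript in the bottom row. The *Stim1* and *Itpr1* shares are smaller and the *Orai1* share larger in each TGFβ bar than in any vehicle bar, in both rows, and *Stim1* is the smaller part of the STIM bars in the top row and the larger part in the bottom row.

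Several of the genes that were not called varied within the groups along with sums of cell type markers. In each group the library with the highest endothelial marker sum (610 CPM, vehicle, 29331999 counts, and 497 CPM, TGFβ, 28641986 counts) also had the highest leukocyte marker sum (344 and 312 CPM). They also had the highest fibroblast marker sum (42849.5 and 45015.6 CPM) and the lowest myofibroblast marker sum (20594 and 23444.1 CPM) of their group. The fibroblast sum is mostly *Col1a1* and *Col1a2*, and the myofibroblast sum is mostly *Fn1* (17672.5 and 16499.6 CPM in these libraries). Of the 5 myofibroblast markers 4 rose with TGFβ, and *Fn1* was the 1 not called (log2 fold change 0.04; edgeR, adjusted p = 0.786). The endothelial marker *Tek* went against the endothelial sum and was at its lowest of the group (74.6 and 83.8 CPM). In both of these libraries *Stim1*, *Orai2*, *Itpr1* and *Itpr2* were at their lowest level of the group and *Orai1* at its highest. Which of these marker sums the genes varied with was not tested. With a covariate for the 6 endothelial markers (their log2 CPM, averaged within each library), an alternative added after these values were seen, *Stim1* was called lower (log2 fold change -0.16; edgeR, adjusted p = 0.0261). The 4 genes called without the covariate were called with it as well, at 0.24 for *Stim2*, -0.24 for *Orai3*, 0.29 for *Itpr3* and 0.21 for *Atp2a2*, and *Itpr2* moved to 0.12 (adjusted p = 0.119).

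Outside the 10 genes, 104 other genes of the calcium store pathway were in the table and 84 passed the filter, of which 33 were higher, 15 were lower and 36 were not called. The genes called made up 57.1% of those tested, beside 40.7% of all genes, and their median log2 fold change was 0.11. The lists were drawn up with results of these data already known and hold genes of unlike function, so the shares are descriptions.

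The list with the most rises was that of the calcium-binding proteins of the ER lumen and secretory pathway. This list includes buffers of stored calcium and chaperones that fold new proteins. Of its 15 genes 11 rose, 1 fell and 3 were not called, with a median log2 fold change of 0.35. Summed over the list, the level was 8072 to 8281 CPM with vehicle and 10237 to 10676 CPM with TGFβ. The largest rises were in *Nucb2*, which encodes a nucleobindin (75.7 ± 1.63 to 115 ± 4.11 CPM, log2 fold change 0.61), *Hsp90b1*, which encodes GRP94 (969.9 ± 25.3 to 1336 ± 53.2 CPM, 0.46), *Pdia3*, a disulfide isomerase (891 ± 22.9 to 1216 ± 23.8 CPM, 0.45) and *Calu*, which encodes calumenin (1339 ± 42.5 to 1824 ± 54.3 CPM, 0.45). Their edgeR adjusted p ranged from 4.1e-05 for *Nucb2* to 0.000404 for *Calu*. The gene that fell was *Nucb1*, which also encodes a nucleobindin (465 ± 19.1 to 396 ± 6.50 CPM, -0.23; edgeR, adjusted p = 0.00537). It is named as the only gene of the list called lower. *Calr*, which encodes calreticulin, the main calcium buffer of the ER outside muscle, stood at 1363, 1333 and 1239 CPM with vehicle and at 1816, 1782 and 1635 CPM with TGFβ (0.41; edgeR, adjusted p = 0.00157). It was singled out after its values were seen.

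The promoters of this list were searched for the ER stress element, the site through which the unfolded protein response is known to raise ER chaperones (CCAAT, 9 bases of any kind, then CCACG, on either strand; RefSeq windows of 250 bases before to 50 bases after the start). The element is known from promoters of this kind of gene, so its presence among ER chaperones is background and no result of these data. It lay in 0.133% of the windows of tested genes, which belonged to 17 genes, 4 of them among the 14 listed genes with a window. None of the 8 store and entry genes with a window held it, and *Atp2a2* and *Itpr1*, which had no window, could not be searched. The matches are printed with 10 bases to each side, on the strand that reads the element forward, with its fixed bases in capitals.
*Calr*, chr8:84847065-84847103, plus strand: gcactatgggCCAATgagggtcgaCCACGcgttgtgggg
*Canx*, chr11:50325790-50325828, minus strand: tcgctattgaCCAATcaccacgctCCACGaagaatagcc
*Hsp90b1*, chr10:86705628-86705666, minus strand: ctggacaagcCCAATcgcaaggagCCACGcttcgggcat
*Hsp90b1*, chr10:86705523-86705561, plus strand: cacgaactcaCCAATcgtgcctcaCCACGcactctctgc
*Hspa5*, chr2:34772015-34772053, plus strand: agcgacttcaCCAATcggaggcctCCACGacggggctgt
Rising with TGFβ was not particular to genes with a match. *Hspa5* (the chaperone BiP) and *Canx* (calnexin) had a log2 fold change of 0.35 each, and 6 genes with a window but no match also rose, among them *Nucb2* (0.61), *Pdia3* (0.45) and *Calu* (0.45). A match is a run of letters and no evidence of binding, and no match says only that the letters are missing from the window.

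Upstream of the IP3 receptors, 20 genes for receptors and IP3 production were tested, and 5 were higher, 7 lower and 8 not called (median log2 fold change -0.08). The summed level of the list was 1287 to 1312 CPM with vehicle and 1369 to 1399 CPM with TGFβ. It was higher in every TGFβ library although more genes of the list were called lower than higher. *F2r* had the highest level in the list and rose from 393 ± 13.3 to 502 ± 11.9 CPM (log2 fold change 0.36; edgeR, adjusted p = 0.000677). It was singled out after its values were seen. The sum weighs genes by level, and its rise was not shared across the list. The 4 largest called changes were falls. *Agtr1a*, which encodes the type 1 angiotensin II receptor, had 277, 387 and 331 counts with vehicle and 40, 58 and 55 with TGFβ (log2 fold change -2.58 ± 0.19, SE; edgeR, adjusted p = 5.93e-05). *P2ry1*, an ADP receptor, went from 2.01 ± 0.353 to 1.04 ± 0.237 CPM (-0.95), *Lpar1*, a receptor for lysophosphatidic acid, from 122 ± 7.48 to 80.5 ± 3.37 CPM (-0.60), and *Plcb1*, a phospholipase C, from 7.79 ± 0.610 to 5.96 ± 0.723 CPM (-0.39).

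Among 10 tested genes listed as regulators of the IP3 receptor 3 rose, 2 fell and 5 were not called. *Itpripl1* and *Itpripl2* carry names related to *Itprip*, which was not in the table, and their own action on the receptor was not tested. *Bok*, whose product binds IP3 receptors, rose (log2 fold change 0.37), as did *Fkbp1a*, which encodes the immunophilin FKBP12 (0.26), and *Itpripl1* (-0.39) and *Itprid2* (-0.30) fell. Of 5 other ER release and leak channels tested, *Pkd2*, which encodes the cation channel polycystin-2, rose (0.32), *Psen2*, which encodes presenilin 2, fell (-0.55), and 3 were not called. The ryanodine receptor genes *Ryr1*, *Ryr2* and *Ryr3* had at most 11 counts in any library and were not tested.

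Among the partners of STIM and ORAI 7 of 16 rose, 3 fell and 6 were not called (median log2 fold change 0.16). *Cracr2a*, which encodes a calcium sensor that stabilizes the STIM-ORAI complex, had 119, 148 and 144 counts with vehicle and 16, 31 and 45 with TGFβ (log2 fold change -2.04 ± 0.29, SE; edgeR, adjusted p = 0.00121). No TGFβ library came near the vehicle libraries. *Homer1*, a scaffold of IP3 receptors and TRPC channels, rose from 8.92 ± 0.453 to 15.5 ± 1.41 CPM (0.80), *Trpc6*, a receptor-operated cation channel, rose from 1.09 ± 0.222 to 1.87 ± 0.388 CPM (0.77), and *Cav1*, the coat protein of caveolae, fell from 196 ± 25.4 to 141 ± 15.4 CPM (-0.48). *Saraf*, an inhibitor of STIM1 that was singled out after its values were seen, rose from 208 ± 3.41 to 266 ± 10.7 CPM (0.36; edgeR, adjusted p = 0.000572).

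Of 13 genes of the contacts between ER and mitochondria 5 rose, 1 fell and 7 were not called (median log2 fold change 0.06). *Pdzd8*, an ER-mitochondria tether, had a log2 fold change of 0.58, *Hspa9*, the chaperone that links IP3 receptors to the mitochondrial channel VDAC, of 0.28, and *Pacs2*, a sorting protein of the contacts, of -0.30. Other calcium pumps and exchangers were represented by 4 tested genes, none of them called by edgeR or limma-voom and 1 by DESeq2, with 1 (*Slc8a1*, a sodium-calcium exchanger, 0.29) at an unadjusted p under 0.05. Of the genes listed as SERCA regulators only *Tmx1*, an oxidoreductase of the ER membrane, was tested. It rose from 56.0 ± 0.806 to 69.5 ± 2.20 CPM (0.31; edgeR, adjusted p = 0.000651), while the muscle regulators *Pln*, *Sln* and *Mrln* had at most 4 counts in any library.

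**Figure D5:**
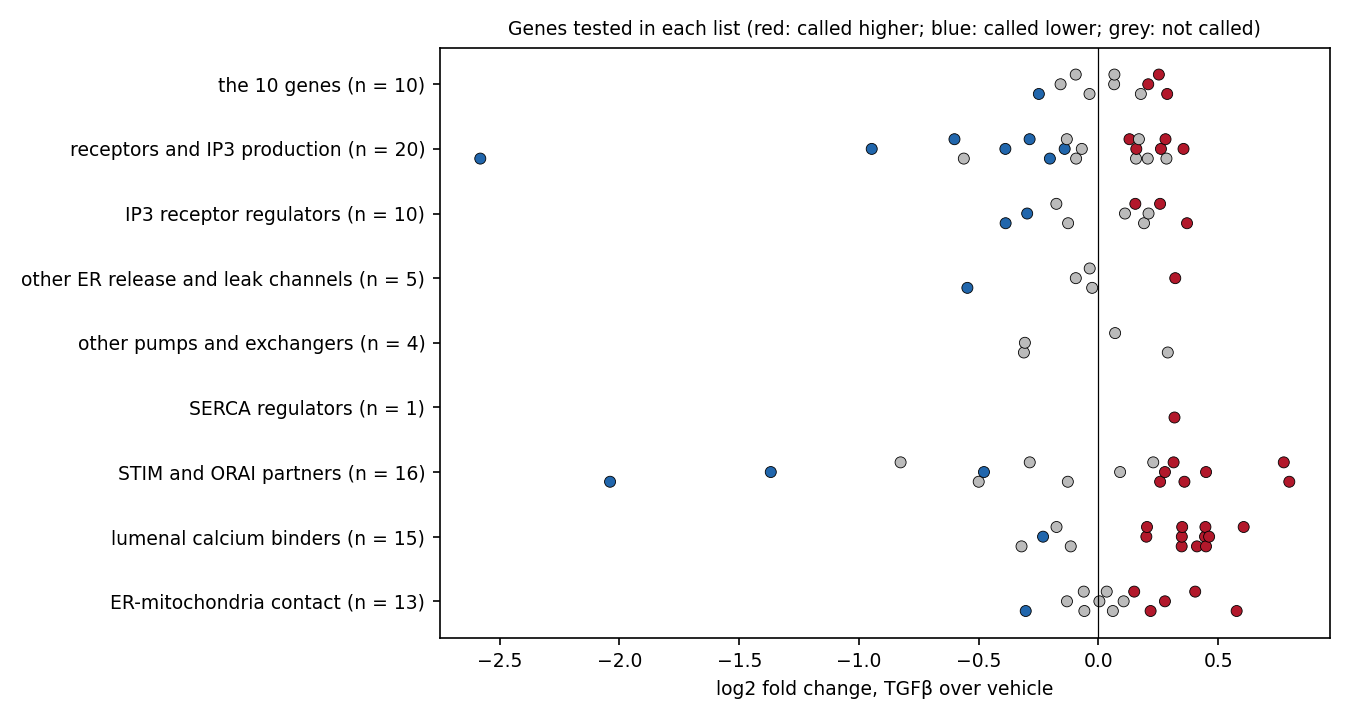
Change with TGFβ (log2 fold change over vehicle) of each tested gene (points) of the 10 store and entry genes and of the other pathway lists, with n in brackets (red, called higher, blue, called lower, and grey, not called). The 10 genes lie within 0.29 of 0, 11 of the 15 lumenal calcium binders are red, and *Agtr1a* (-2.58) and *Cracr2a* (-2.04) lie farthest to the left.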

How the data were processed

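Poly(A) RNA of 6 cultures was made into stranded libraries and sequenced as single-end reads of 75 bases, per the paper's methods. The authors aligned the reads to mm10 and deposited whole-number read counts per gene, with no normalization, together with results of their own DESeq2 comparison (means, fold changes and p-values), which were not used. The aligner, the counting tool and its strand setting are not given in the sources used here. The ATAC-seq data were not analysed here.

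Counts of 14334 genes that passed edgeR's filterByExpr were fitted with TMM factors and the quasi-likelihood test (edgeR 4.0.16, R 4.3.3), with Benjamini-Hochberg adjustment over all genes tested and a threshold of 0.05. Standard errors are the log2 fold change over the square root of F, and intervals (95%) use the test's t distribution. The biological coefficient of variation was 7.97%. Single values, ratios and family sums were compared with two-sided exact permutation tests, whose smallest p is 0.1. Libraries of a group differed by more than sampling noise (chi-square per gene 7.95 to 27.1), so none was deposited more than once. The labels name no animals, and p-values measure the spread between these 6 libraries. The 10 genes had at least 497 counts per library. Counting error weighs more on genes with fewer counts, such as *Orai1* with 497 to 638 per library, and its part in the spread was not tested.

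Gene coordinates and lengths came from GENCODE M21 on GRCm38 (25086 of 25140 genes matched by identifier), and 45 genes of the table have no symbol. Genes that overlap the 10 genes held at most 0.330% of their counts. For the 10 genes other than *Atp2a2* and *Atp2b1* (0.751%), no 75-base window of the longest transcript occurs in a transcript of another gene. Exons outside the longest transcript were not searched.

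The 10 genes, the other lists and the tests were chosen with earlier results of these data known. The genes named from other lists are up to 4 per list with the largest called change among those with at least 1 CPM on average and groups that do not overlap, apart from a result that is not reported here. Of 112 listed pathway names 104 were in the table. Alternatives were DESeq2's size factors, upper quartile scaling, DESeq2 1.42.0, limma-voom (limma 3.58.1), all genes kept whatever their counts, only genes with at least 1 CPM in 3 libraries, single libraries left out, the longest transcript as gene length and, chosen after seeing the data, an endothelial marker covariate.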

Additional observations from a re-analysis of the deposited data

How the results depend on the processing

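*Stim2*, *Orai3*, *Itpr3* and *Atp2a2* were called in the same direction under all 13 alternatives, 12 of them planned, with log2 fold changes of 0.22 to 0.28, -0.28 to -0.23, 0.25 to 0.31 and 0.19 to 0.21 and edgeR, DESeq2 or limma-voom adjusted p of at most 0.0132, 0.0191, 0.00959 and 0.0238. *Orai1*, *Itpr1* and *Atp2b1* were called under none. With single libraries left out, the log2 fold change ranged from -0.0217 to 0.1359 for *Orai1* (negative without the TGFβ library of 28641986 counts, adjusted p 0.831), from -0.1127 to 0.0264 for *Itpr1* (positive without that library, or at 0.0097 without the vehicle library of 29296570 counts), from -0.2771 to -0.1054 for *Orai2* (called without the TGFβ library of 28894151 counts) and from 0.1161 to 0.2381 for *Itpr2* (called without the TGFβ library of 28641986 counts). The difference in log2 ratio of *Orai2* to *Orai3* ranged from -0.0221 to 0.1636 and was negative only without the TGFβ library of 28894151 counts. Beyond the removal of the sample, the cause was not tested. Leaving out the TGFβ library of 28641986 counts also brought *Stim1* from -0.0949 to -0.0376, and it was called in neither case. The log2 ratio differences then went from -0.157 to -0.0121 for *Stim1* to *Orai1*, from -0.111 to -0.0107 for *Itpr2* to *Itpr3* and from 0.226 to 0.0900 for *Orai1* to *Orai2*. The ratios were not tested with a library left out. With the endothelial covariate, chosen after seeing the data, *Stim1* was called (-0.1566). The number of the 10 genes called was 4 or 5, of other pathway genes 39 to 53 and of all genes 4489 to 6351.

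With the longest transcript as the length, the shares of the family levels with vehicle and TGFβ were 60.5% and 54.6% for *Stim1*, 39.5% and 45.4% for *Stim2*, 33.2% and 37.7% for *Orai1*, 19.9% and 19.4% for *Orai2*, 46.8% and 42.8% for *Orai3*, 58.8% and 54.2% for *Itpr1*, 22.7% and 24.3% for *Itpr2*, and 18.5% and 21.5% for *Itpr3*. The summed STIM change was then 0.0524 on the log2 scale. The change of length alone moves these values.

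No paired analysis was possible because the columns of the count table name the group and carry no replicate number. With 3 libraries in each group, exact permutation tests cannot go below 0.1, and gene-level counts say nothing about isoforms, protein or calcium flux.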
